A study of Mus musculus with 21 samples.

Results

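Transcripts that mark cells other than endothelium were followed through RNA sequencing of sorted endothelium, the inner lining of blood vessels, from adult mouse brain. The markers were 42 genes, taken by name from a list that covers pericytes and smooth muscle (8 genes), astrocytes (6), neurons (5), oligodendrocytes (6), microglia and leukocytes (8), neutrophils (2), fibroblasts (4), and choroid plexus with leptomeninges (3). All 42 names occurred once in the deposited table, which held 24206 usable gene names. Levels are given in RPKM, in which the authors divided a gene's reads by its length and by the size of the library.

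Cells were sorted from C57BL/6 mice of 12 to 20 weeks as live cells that carried CD31 and lacked CD45 and PDGFRb. In a stroke experiment every mouse had 1 h of middle cerebral artery occlusion and 1 d of reperfusion, and each of 4 groups had 4 libraries. Cko-ST (stroke hemisphere) and Cko-NS (non-stroke hemisphere) came from Gpr124 flox/-; ROSA-CreER+ mice, and WT-ST and WT-NS from Gpr124 flox/+; ROSA-CreER+ mice. The WT mice therefore also carried a floxed Gpr124 allele and the Cre, and NS libraries come from operated animals. ROSA-CreER is not limited to endothelium. In a second experiment without stroke, 3 Bcat libraries came from Ctnnb1 lox(ex3)/+; Cdh5-CreER+ mice and 2 Ctnnb1-WT libraries from Ctnnb1 +/+; Cdh5-CreER+ mice, where the Cre is driven from an endothelial gene. The first experiment used 3' tag libraries from polyadenylated RNA and the second another kit on total RNA, so RPKM was never compared between them. Tag reads do not grow with transcript length, so within the stroke experiment RPKM orders genes only roughly.

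A brain vessel is wrapped by pericytes, smooth muscle and the end-feet of astrocytes, and lies among neurons, myelin-forming oligodendrocytes and microglia, the resident immune cells. The choroid plexus, which makes cerebrospinal fluid, has its own vessels, and the leptomeninges cover the brain. A sort for a surface protein acts on protein, so the RNA of another cell can reach a library as a whole cell, a doublet, a fragment such as myelin, or free RNA, and a marker can also be made at a low level by the endothelial cell itself. The RPKM of a sorted pool does not separate these, nor fewer cells of a type from less RNA per cell.

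The 15 endothelial markers set beside the list were present in each of the 21 libraries, with a median over the markers of 68.5 to 158 RPKM in the stroke experiment and 149 to 205 RPKM in the other. The lowest single value was 3.54 RPKM, for Kdr in Cko-NS 4. The median over the 42 non-endothelial members was 0.0621 to 0.858 RPKM in the stroke libraries and 0.0641 to 0.515 RPKM in the others. Estimated depth was 4.72 to 19.6 M reads in the stroke libraries and is not given for the other 5. Red-cell transcripts were abundant, with Hba-a1 at 233 to 4928 RPKM in the stroke libraries. Gpr124 RPKM was 0.500 to 1.72 in Cko-ST, 0.994 to 4.85 in Cko-NS, 2.92 to 8.12 in WT-ST and 2.65 to 7.58 in WT-NS, so the Cko-NS and WT-NS libraries overlapped. 2 libraries went against their sex label. Cko-NS 4, labelled Female, had 1.48 RPKM of Xist and 74.3 RPKM of the Y-linked Ddx3y, and Cko-ST 3, labelled Male, had 89.7 RPKM of Xist and 0.420 RPKM of Ddx3y. Cko-ST 4, labelled Male, had 0.776 RPKM of Xist and 140 RPKM of Ddx3y, and all other stroke libraries were labelled Female. The stroke effects called in Cko are given with and without both Cko-NS 4 and Cko-ST 3. Leaving these out keeps Cko-ST 4 but no Cko-NS library with low Xist and high Ddx3y, so it does not balance sex.

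The list fell into a few transcripts that were high in every library, a group that came and went between libraries, and many at or near 0. In the 16 stroke libraries 7 members had at least 1 RPKM in every library, 17 reached 10 RPKM in some library, 16 never reached 1 RPKM and 1, Col1a1, was listed at 0 throughout. In the other 5 libraries 6 members had at least 1 RPKM in every library, 18 never reached it and 6 were listed at 0 throughout. A listed 0 need not mean that no transcript was there.

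**Figure D1:**
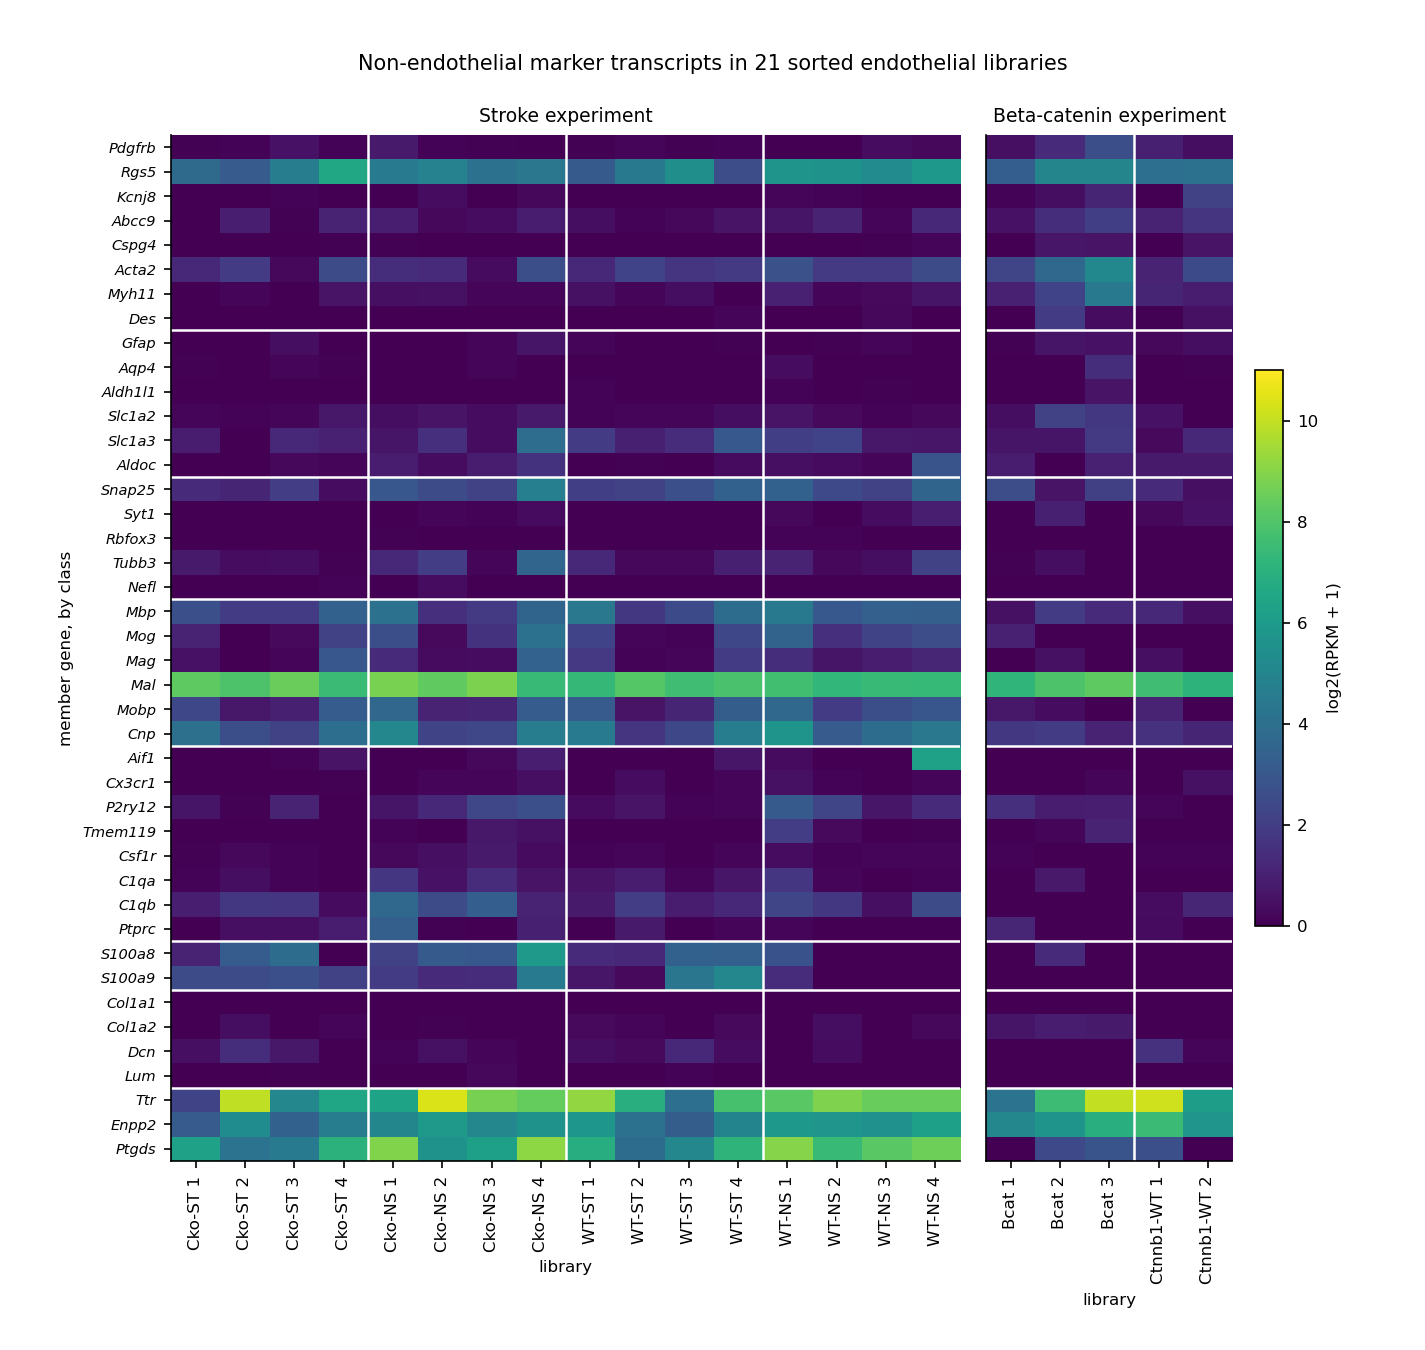
Each row is 1 of the 42 member genes, grouped by class from mural cells at the top to choroid plexus and leptomeninges at the bottom, and each column is 1 library; colour gives log2(RPKM + 1), and the panels are not comparable with each other. Mal, Enpp2 and Rgs5 are above 0 in every column, Ttr runs from 3.79 to 1318 RPKM on the left, Cnp, Mobp, Mog and Mag change from column to column within each stroke group, and most other rows are dark.

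Rgs5, a regulator of G-protein signalling used as a pericyte marker, was present in every library, while Pdgfrb, Cspg4, Kcnj8 and Des were below 1 RPKM in all 16 stroke libraries. Rgs5 RPKM was 12.8, 7.84, 24.0 and 93.8 in Cko-ST 1 to 4, and 22.0, 28.2, 16.6 and 19.8 in Cko-NS 1 to 4. It was 7.66, 20.5, 43.8 and 5.03 in WT-ST 1 to 4, and 50.7, 49.5, 38.2 and 57.6 in WT-NS 1 to 4. Cko-ST 4 was the highest of the 16 and WT-ST 4 the lowest, and only WT-ST 3 of the WT-ST libraries reached the range of WT-NS. Rgs5 did not pass the test in either stroke comparison (limma adjusted p = 0.961 in Cko and 0.0666 in WT).

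Pdgfrb, which encodes the receptor that the sort excluded, had at most 0.716 RPKM and at most 35 reads in a stroke library, with 127.7 reads over all 16. The pericyte genes Cspg4 (the NG2 proteoglycan), Kcnj8 (a potassium channel) and Des (desmin) reached at most 11, 6 and 4 reads in a library and were at 0 in 10, 10 and 13 of the 16. Abcc9, the sulfonylurea receptor that pairs with the Kcnj8 channel, lay between 0.0192 and 1.33 RPKM. The smooth-muscle genes were Acta2, the muscle actin, with 0.183 to 5.66 RPKM, and Myh11, the muscle myosin, with 0.0101 to 1.02 RPKM. The other mural members thus did not span the range of Rgs5, and the summed RPKM of the class without Rgs5 was 0.714 to 7.33 RPKM in the stroke libraries. In Cko-ST 4, highest in Rgs5, Abcc9 (1.14), Acta2 (4.70), Myh11 (0.489) and Cspg4 (0.0379) were also the highest of Cko-ST. Pdgfrb and Kcnj8 were higher in Cko-ST 3. Higd1b, a further mural marker, had 5.32 RPKM in Cko-ST 4 and at most 0.723 RPKM in the other stroke libraries. The rest of the further mural markers did not share this. In Cko-ST 4 Vtn, Anpep, Cnn1 and Atp13a5 were at 0, Notch3 was at 0.0319 and Tagln at 2.37 RPKM. In WT-ST 3, highest of WT-ST in Rgs5, the sum without Rgs5 was 2.84 RPKM, below WT-ST 2 (3.94).

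In the beta-catenin experiment the muscle genes and Pdgfrb were highest in 1 library. Acta2 RPKM was 3.90, 11.8 and 34.1 in Bcat 1 to 3, and 1.05 and 4.48 in Ctnnb1-WT 1 and 2. Myh11 RPKM was 0.988, 3.70 and 21.0 in Bcat 1 to 3, and 1.22 and 0.795 in Ctnnb1-WT 1 and 2. Pdgfrb RPKM was 0.380, 1.57 and 5.28 in Bcat 1 to 3, and 0.946 and 0.325 in Ctnnb1-WT 1 and 2. Bcat 3 stood highest for these 3 genes and for Abcc9 (3.09 RPKM), and Bcat 1 did not exceed both Ctnnb1-WT libraries for Acta2, Myh11 or Pdgfrb. Other members were highest elsewhere: Kcnj8 in Ctnnb1-WT 2 (3.35 RPKM, against 1.22 in Bcat 3), and Des (2.90) and Cspg4 (0.608) in Bcat 2. Rgs5 RPKM was 8.62, 30.9 and 30.7 in Bcat 1 to 3, and 15.0 and 16.1 in Ctnnb1-WT 1 and 2, so Bcat 2 and Bcat 3 lay above and Bcat 1 below both Ctnnb1-WT libraries.

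The defining astrocyte transcripts were almost absent. Gfap, the intermediate filament of astrocytes, had at most 0.528 RPKM in the stroke libraries. Aqp4, the water channel of astrocyte end-feet, was at 0 in 10 of 16 libraries with at most 12.02 reads, and Aldh1l1, a folate enzyme, was at 0 in 11 with at most 5 reads. The glutamate transporter Slc1a2 had 0.0780 to 0.758 RPKM.

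Slc1a3, a second glutamate transporter and the astrocyte member with the highest mean in the stroke experiment, was higher in single libraries. Slc1a3 RPKM was 0.793, 0, 1.38 and 1.00 in Cko-ST 1 to 4, and 0.527, 1.85, 0.286 and 14.2 in Cko-NS 1 to 4. In WT-ST 1 to 4 it was 2.75, 0.933, 1.60 and 7.05, and in WT-NS 1 to 4 it was 3.12, 3.67, 0.638 and 0.571. The 2 high values were in Cko-NS 4 and WT-ST 4, and the groups overlapped. Aldoc, a glycolytic enzyme enriched in astrocytes, was 0.0253, 0, 0.164 and 0.106 RPKM in Cko-ST 1 to 4, and 0.819, 0.274, 0.841 and 2.06 RPKM in Cko-NS 1 to 4. Its RPKM was 0, 0.0359, 0 and 0.260 in WT-ST 1 to 4, and 0.368, 0.251, 0.0935 and 6.21 in WT-NS 1 to 4. Aldoc was lower in the stroke library of each same-numbered pair, but it lay below the filter of a mean of 1 RPKM and was not tested. In the beta-catenin libraries Slc1a2 was 0.328, 3.49 and 2.44 RPKM in Bcat 1 to 3, and 0.438 and 0 RPKM in Ctnnb1-WT 1 and 2, and Bcat 3 had the only Aqp4 value above 1 RPKM (1.75).

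Rbfox3 (the nuclear antigen NeuN) and Nefl (a neurofilament) were at or near 0 throughout, with at most 0.0878 and 0.279 RPKM in the stroke libraries and 0 in the other 5. Syt1, a calcium sensor of synaptic vesicles, had at most 0.897 RPKM, in WT-NS 4. Snap25, a protein of synaptic vesicle fusion, was above 0 in all 21 libraries, and Tubb3 in all 16 stroke libraries. Snap25 RPKM was 1.46, 1.2, 3 and 0.272 in Cko-ST 1 to 4, and 6.91, 4.83, 3.39 and 25.6 in Cko-NS 1 to 4. In the WT groups it was 3.08, 3.41, 5.45 and 9.56 in WT-ST 1 to 4, and 9.82, 4.38, 3.36 and 10.6 in WT-NS 1 to 4. Every Cko-ST library lay below every Cko-NS library, with Cko-NS 4 far above the rest, while WT-ST and WT-NS overlapped.

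Tubb3, a neuronal tubulin, had its highest value in the same library. Tubb3 RPKM was 0.716, 0.301, 0.312 and 0.0590 in Cko-ST 1 to 4, and 1.36, 3.03, 0.150 and 11.2 in Cko-NS 1 to 4. It was 1.42, 0.180, 0.177 and 0.938 in WT-ST 1 to 4, and 1.10, 0.167, 0.312 and 3.34 in WT-NS 1 to 4. In the beta-catenin experiment Snap25 RPKM was 5.02, 0.509 and 3.24 in Bcat 1 to 3, and 1.55 and 0.365 in Ctnnb1-WT 1 and 2, which overlap.

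Myelin transcripts were the members that differed most regularly between libraries of 1 group. Cnp, an enzyme of myelin membranes, Mobp and Mbp, proteins of compact myelin, and Mog and Mag, proteins of its outer and inner surfaces, moved together from library to library. Cnp RPKM was 15.8, 5.17, 3.42 and 14.9 in Cko-ST 1 to 4, and 33.3, 3.79, 4.07 and 24.4 in Cko-NS 1 to 4. It was 23.1, 2.28, 4.22 and 23.5 in WT-ST 1 to 4, and 50.2, 8.03, 13.9 and 20.0 in WT-NS 1 to 4. In each of the 4 groups both libraries numbered 1 and 4 lay above both libraries numbered 2 and 3.

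Mog showed the same order. Mog RPKM was 1.12, 0.00607, 0.201 and 3.43 in Cko-ST 1 to 4, and 5.26, 0.199, 2.09 and 16.5 in Cko-NS 1 to 4. It was 3.65, 0.121, 0.0892 and 4.25 in WT-ST 1 to 4, and 10.4, 1.92, 3.84 and 5.15 in WT-NS 1 to 4. Mobp ranged from 0.489 to 12.0 RPKM and Mag from 0 to 10.1 RPKM with that order in all 4 groups, and Mbp from 1.80 to 20.7 RPKM with it in 3. Of the further oligodendrocyte markers set beside the members, Cldn11 (27.3 to 1035 RPKM), Ermn and Opalin had it in all 4 groups and Ugt8a in 3. Among all 9838 genes with a mean of at least 1 RPKM, 86 had the order in all 4 groups, or 0.874%. The order was noticed in these values, was not tested, and the labels do not say what the numbers stand for.

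Mal, a lipid-raft protein of myelin that is also found in epithelia, did not follow. Mal RPKM was 311, 246, 357 and 180 in Cko-ST 1 to 4, and 444, 316, 450 and 167 in Cko-NS 1 to 4. It was 160, 271, 198 and 230 in WT-ST 1 to 4, and 205, 154, 172 and 163 in WT-NS 1 to 4. Its lowest value was 154 RPKM, and WT-ST 2, the library poorest in Cnp, had 271 RPKM of Mal. In the beta-catenin experiment Mal was 146, 241 and 307 RPKM in Bcat 1 to 3, and 198 and 137 RPKM in Ctnnb1-WT 1 and 2, while Cnp lay between 1.07 and 2.80 RPKM in all 5 and Mog was at 0 in 4. A sum over the 6 members is mostly Mal: the sums in the stroke libraries were 174 to 512 RPKM.

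**Figure D2:**
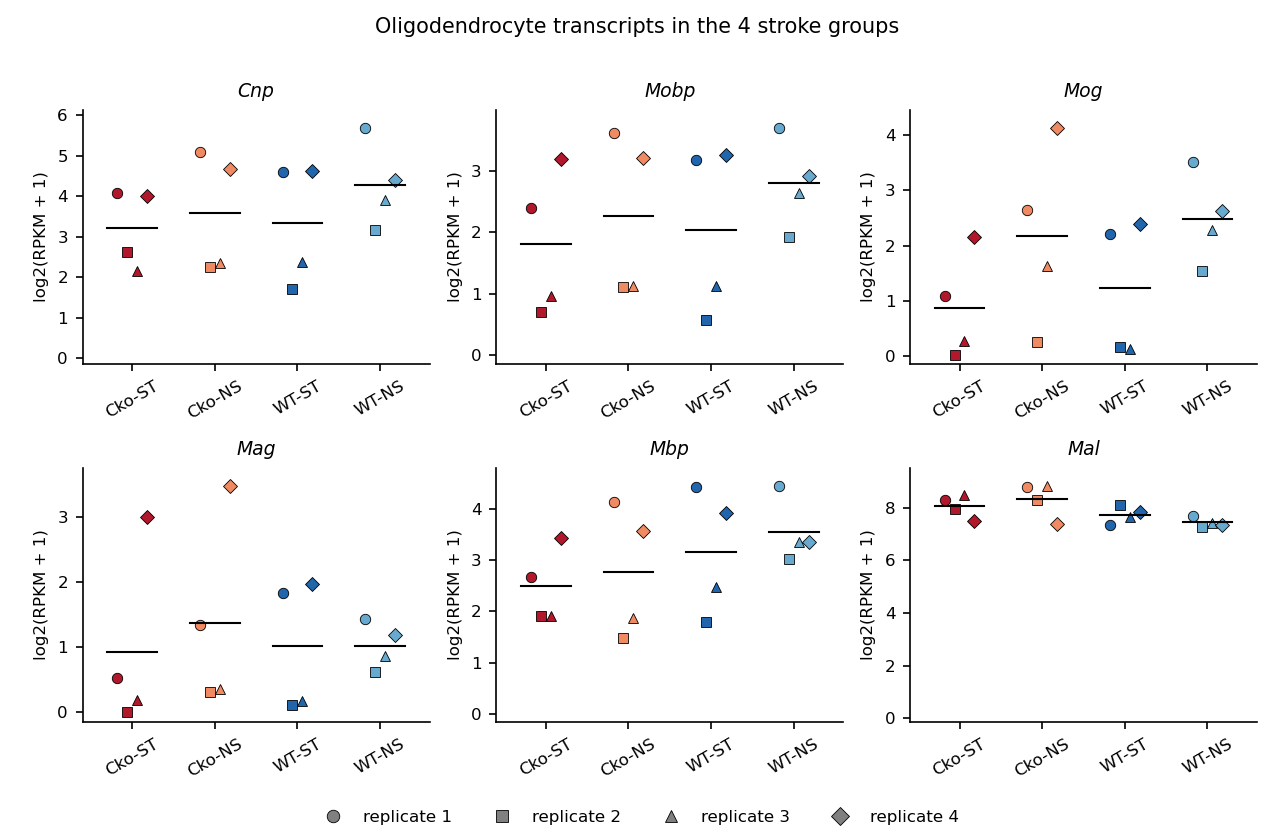
Each panel is 1 oligodendrocyte member and each point 1 library of the stroke experiment, as log2(RPKM + 1); colour gives the group, the marker shape gives the replicate number, and bars are group means on that scale. Circles and diamonds (numbers 1 and 4) lie above squares and triangles (numbers 2 and 3) in every group for Cnp, Mobp, Mog and Mag, in 3 groups for Mbp, and not for Mal.

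Ptprc, which encodes the CD45 that the sort excluded, was at 0 in 6 of the 16 stroke libraries and reached 0.944 RPKM in 9 others. The exception was Cko-NS 1, with 8.92 RPKM and 366.3 reads. Aif1, a calcium-binding protein of microglia and macrophages, was at 0 in 9 libraries and below 1 RPKM in 6, and had 76.7 RPKM in WT-NS 4, where 984.7 of the 1008 Aif1 reads over the 16 libraries lay. In WT-NS 4 the other members of the class were C1qb at 4.65, P2ry12 at 1.5, Cx3cr1 at 0.128, Csf1r at 0.124, C1qa at 0.0634, Tmem119 at 0.0331 and Ptprc at 0 RPKM.

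P2ry12, a purine receptor of resting microglia, was low in every library. P2ry12 RPKM was 0.528, 0.0370, 1.07 and 0.0218 in Cko-ST 1 to 4, and 0.533, 1.35, 4.14 and 5.41 in Cko-NS 1 to 4. It was 0.266, 0.485, 0.0653 and 0.107 in WT-ST 1 to 4, and 7.79, 3.89, 0.573 and 1.5 in WT-NS 1 to 4. All WT-ST libraries lay below all WT-NS libraries, and Cko-ST 3 alone of the Cko-ST libraries reached the range of Cko-NS. The WT-ST values are 12, 10.98, 1 and 2 reads, and the WT-NS values 86, 63, 9.98 and 50.96 reads. P2ry12 (GRCm38 chromosome 3, 59216272 to 59262871, minus strand) lies inside Med12l on the opposite strand, the sources do not say whether counting used strand, and Med12l itself had 0 to 0.490 RPKM in the stroke libraries.

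The complement genes C1qa and C1qb, which microglia make in adult brain, had 0 to 2.35 and 0.236 to 11.9 RPKM. Their highest Cko values were both in Cko-NS 1, with 2.30 and 11.9 RPKM. Tmem119, a microglial surface protein, was at 0 in 10 libraries and reached 2.96 RPKM in WT-NS 1, and Csf1r and Cx3cr1, receptors of microglia, stayed below 1 RPKM in all 16. In the beta-catenin libraries P2ry12 RPKM was 1.84, 0.802 and 0.911 in Bcat 1 to 3, and 0.129 and 0 in Ctnnb1-WT 1 and 2. P2ry12 was below the filter there and was not tested.

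S100a8 and S100a9 encode the subunits of calprotectin, which neutrophils hold in large amounts. S100a8 RPKM was 1.10, 8.11, 13.8 and 0 in Cko-ST 1 to 4, and 3.51, 7.74, 7.23 and 60 in Cko-NS 1 to 4. It was 1.45, 1.31, 9.65 and 9.48 in WT-ST 1 to 4, and 5.91, 0, 0 and 0 in WT-NS 1 to 4. S100a9 RPKM was 4.83, 4.94, 5.38 and 3.38 in Cko-ST 1 to 4, and 2.88, 1.5, 1.64 and 22.4 in Cko-NS 1 to 4. In the WT groups it was 0.592, 0.196, 19.2 and 32.9 in WT-ST 1 to 4, and 1.61, 0, 0 and 0 in WT-NS 1 to 4. Both were listed at 0 in WT-NS 2, WT-NS 3 and WT-NS 4, both were highest or next to highest in Cko-NS 4, and no fold is given against a group with values listed at 0. Of the further neutrophil markers, Retnlg had 63.8 RPKM in WT-ST 4 and was at 0 in WT-NS 2 to 4, while the chemokine receptor Cxcr2 had 0.855, 0.530 and 0.588 RPKM in WT-NS 2 to 4, against 0.340 to 0.603 RPKM in WT-ST. Mpo and Camp, genes of immature neutrophils, were at 0 in all 16, and Ngp had at most 0.116 RPKM. S100a8 and S100a9 did not pass in either comparison (adjusted p = 0.280 and 0.922 in Cko, 0.270 and 0.109 in WT). In the beta-catenin experiment S100a8 had 1.45 RPKM in Bcat 2 and both were otherwise at 0.

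Col1a1, the main fibrillar collagen, was listed at 0 in all 21 libraries. Its partner Col1a2 had at most 0.337 RPKM in the stroke libraries, and Lum, a proteoglycan, at most 4 reads. Dcn, another small proteoglycan, was the highest of the class. Dcn RPKM was 0.347, 1.74, 0.645 and 0 in Cko-ST 1 to 4, and 0.0663, 0.424, 0.124 and 0 in Cko-NS 1 to 4. It was 0.323, 0.198, 1.39 and 0.298 in WT-ST 1 to 4, and 0, 0.276, 0 and 0 in WT-NS 1 to 4. No fibroblast member reached the filter, so none was tested. Col1a2 RPKM was 0.563, 0.802 and 0.748 in Bcat 1 to 3 and 0 in both Ctnnb1-WT libraries. Dcn went the other way, at 0 in Bcat 1 to 3, and 1.95 and 0.13 RPKM in Ctnnb1-WT 1 and 2.

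The markers of choroid plexus and leptomeninges were Ttr, Enpp2 and Ptgds. Ttr, the thyroid-hormone carrier that choroid plexus epithelium secretes in bulk, was 3.79, 992, 33.5 and 87.7 RPKM in Cko-ST 1 to 4, and 82.4, 1318, 432 and 338 RPKM in Cko-NS 1 to 4. Ttr RPKM was 594, 122, 15.3 and 221 in WT-ST 1 to 4, and 288, 472, 350 and 345 in WT-NS 1 to 4. WT-NS kept within a narrow range while the other 3 groups spread widely, and each of the 4 Cko-ST libraries was below the Cko-NS library of its number. Ttr in the beta-catenin experiment was 17.5, 184 and 1017 RPKM in Bcat 1 to 3, and 1181 and 67.9 RPKM in Ctnnb1-WT 1 and 2, so both groups held a high and a low library.

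Enpp2, which encodes the lysophospholipase autotaxin of choroid plexus and some oligodendrocytes, varied less. Enpp2 RPKM was 7.91, 40.1, 9.53 and 23.4 in Cko-ST 1 to 4, and 31.8, 60.4, 33.1 and 47.3 in Cko-NS 1 to 4. It was 54.3, 16.9, 8.58 and 30.1 in WT-ST 1 to 4, and 57.2, 51.9, 46.2 and 72.5 in WT-NS 1 to 4. Enpp2 was lower in the stroke library of all 8 same-numbered pairs, as were Ptgds, Mog, P2ry12 and, below the filter, Aldoc. Of all genes tested 9.87% were lower in all 8. In the beta-catenin libraries Enpp2 was 33.0, 51.0 and 123 RPKM in Bcat 1 to 3, and 178 and 52.9 RPKM in Ctnnb1-WT 1 and 2, highest in the 2 libraries that were highest in Ttr.

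Ptgds, the prostaglandin D synthase of leptomeninges, choroid plexus and oligodendrocytes, was abundant in the stroke experiment. Ptgds RPKM was 78.1, 17.3, 22.5 and 133 in Cko-ST 1 to 4, and 475, 47.9, 73.8 and 561 in Cko-NS 1 to 4. It was 113, 13.7, 33.0 and 141 in WT-ST 1 to 4, and 509, 172, 288 and 375 in WT-NS 1 to 4. All WT-ST libraries lay below all WT-NS libraries, and in each group the libraries numbered 1 and 4 lay above those numbered 2 and 3, as for Cnp and Mog and not as for Ttr. In the beta-catenin experiment Ptgds was 0, 4.46 and 6.35 RPKM in Bcat 1 to 3, and 5.45 and 0 RPKM in Ctnnb1-WT 1 and 2.

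**Figure D3:**
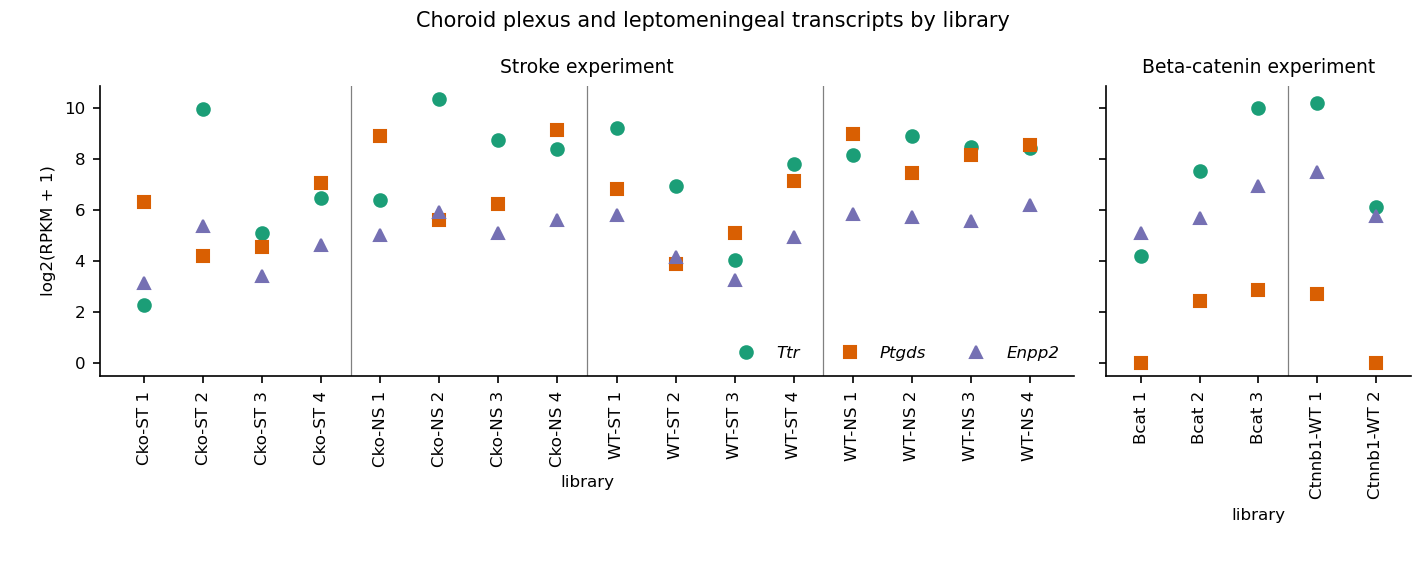
Each column is 1 library and each symbol the log2(RPKM + 1) of Ttr, Ptgds or Enpp2, with grey lines between groups; the panels are not comparable with each other. Ttr is highest in Cko-NS 2 and Cko-ST 2, where Ptgds is the lowest of its group, and in the right panel Ttr and Enpp2 are both highest in Bcat 3 and Ctnnb1-WT 1.

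The 7 further choroid plexus markers were low beside Ttr and did not all follow it. In the stroke libraries the highest values were 10.8 RPKM for the potassium channel Kcnj13 in Cko-NS 4, 5.10 for Kl in WT-NS 4 and 1.71 for the water channel Aqp1 in Cko-NS 1. Clic6 (2.36) and Kcne2 (1.02) were highest in Cko-ST 2, and Otx2 (0.624) and Folr1 (0.558) in Cko-NS 2, the 2 libraries highest in Ttr. In the beta-catenin libraries Kcnj13 lay between 6.28 and 12.9 RPKM in all 5. Folr1 (4.93) and Aqp1 (3.68) were highest in Bcat 1, the library lowest in Ttr, Otx2 (4.62) in Bcat 3, and Kl (7.39), Clic6 (9.03), Kcnj13 and Kcne2 (1.60) in Ctnnb1-WT 1. Whether these values belong to choroid plexus cells was not tested.

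The question put to the stroke comparisons was whether marker transcripts differed between the hemispheres. Each member was tested with limma on log2(RPKM + 1), which understates fold changes of genes with low values, within 1 fit of the 16 libraries over the 9838 genes with a mean of at least 1 RPKM. The threshold was a Benjamini-Hochberg adjusted p of 0.05 over all genes. Of the 42 members 19 entered the fit, and the other 23 were below the filter. In Cko-ST against Cko-NS 1 of the 19 fell and 0 rose, while 15.2% of all genes passed and 8.71% passed as lower. In WT-ST against WT-NS 2 of 19 fell and 0 rose, while 13.3% of all genes passed and 4.84% passed as lower. As shares of the 19 these are 5.26% in Cko and 10.5% in WT, each resting on 1 or 2 genes. No label ties a library to its own mouse, and the spread behind each p-value may therefore be technical.

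Snap25 (GRCm38 chromosome 2, 136713453 to 136782428, plus strand) was the member that fell in Cko. Its log2 fold change there was -1.90 ± 0.51 (SE, n = 4 each, limma adjusted p = 0.0179). It was -1.63 ± 0.46 without Cko-NS 4 and Cko-ST 3 (limma adjusted p = 0.0256), where C1qb and Mal were called lower as well. The call ended without Cko-NS 4 alone (-1.36, adjusted p = 0.0546), the library with the highest Snap25, or without Cko-ST 4 (-1.62, adjusted p = 0.0589), the lowest. Snap25 was -0.32 ± 0.51 in WT (adjusted p = 0.757), and the difference between the effects in Cko and WT was -1.59 ± 0.73 (adjusted p = 0.702 in limma), so they are not shown to differ.

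Ptgds (GRCm38 chromosome 2, 25466709 to 25470046, minus strand) fell in WT. Its log2 fold change there was -2.55 ± 0.83 (SE, n = 4 each, limma adjusted p = 0.0488). That p stood just under the threshold, and over 18 other settings the adjusted p was 1.57e-04 to 0.149, past the threshold in 8. Without 1 library the call ended in 6 of 8 cases (WT-NS 1, WT-NS 2, WT-NS 3, WT-NS 4, WT-ST 2 and WT-ST 3), with log2 fold changes of -3.02 to -1.93. In Cko Ptgds was -1.94 ± 0.83 (adjusted p = 0.125) and -1.05 without Cko-NS 4 and Cko-ST 3 (adjusted p = 0.481).

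The Cko libraries of 1 number deviated together, if weakly (correlations of 0.1005 to 0.213). A block by number in the fit of all 16 libraries also joined Cko and WT libraries of 1 number, which come from different mice. In that fit Ptgds fell in Cko as well, by 1.94 ± 0.34 (limma adjusted p = 0.00127), as did Mog, by 1.29 ± 0.40 (adjusted p = 0.0422, against 0.254 without the block). Both are genes in which libraries numbered 1 and 4 lay above those numbered 2 and 3 in all 4 groups. Of all genes 8.78% were called lower in that fit. With the block in a fit of the 8 Cko libraries alone, chosen after the data were seen, 6.68% of all genes were called lower. Ptgds (adjusted p = 0.00174), Enpp2 (-1.28 ± 0.26, adjusted p = 0.0177, against 0.0793 without the block) and Ttr (-2.53 ± 0.52, adjusted p = 0.0183, against 0.182) were called lower there, and Snap25 (adjusted p = 0.0772) and Mog (adjusted p = 0.0555) were not. Without Cko-NS 4 and Cko-ST 3, in the same blocked fits, Ptgds was still called lower (-1.60, limma adjusted p = 0.0198, and adjusted p = 0.0145 in the Cko libraries alone). Mog (-0.88, adjusted p = 0.229), and Enpp2 (-1.23, adjusted p = 0.0939) and Ttr (-2.27, adjusted p = 0.114) in the Cko libraries alone, were then no longer called. In that fit of the Cko libraries alone only numbers 1 and 2 kept a library from each hemisphere. The effects there rest on those numbers, so the fit cannot decide whether the calls hold. The difference between the Ptgds effects in Cko and WT was 0.61 ± 1.17 (adjusted p = 0.936).

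P2ry12 fell in WT with a log2 fold change of -1.56 ± 0.50 (SE, n = 4 each, limma adjusted p = 0.0452). Over 18 other settings the adjusted p was 0.0154 to 0.148, past the threshold in 7, and a pseudocount of 0.1 gave -3.04. Leaving out any 1 library other than WT-NS 3 ended the call, with log2 fold changes of -1.96 to -1.13 over the 8 omissions. In Cko P2ry12 was -1.29 ± 0.50 (adjusted p = 0.0901), -1.17 without Cko-NS 4 and Cko-ST 3, and the effects differed by 0.28 ± 0.70 (adjusted p = 0.960).

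Snap25 alone in Cko, and Ptgds and P2ry12 alone in WT, had groups that did not overlap among the 19 members tested, where 11.4% of all genes in Cko and 8.70% in WT were lower in stroke without overlap. Estimates lay below 0 for 16 of 19 members in Cko and 15 of 19 in WT, against 5765 and 4840 of 9838 genes. The median log2 fold change of the 19 was -0.83 in Cko and -0.52 in WT, against -0.13 and 0.01 over all genes. Median-of-ratios scaling moved the median of all genes in Cko to -0.01, and the calls of Snap25 in Cko and of Ptgds and P2ry12 in WT held under it.

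**Figure D4:**
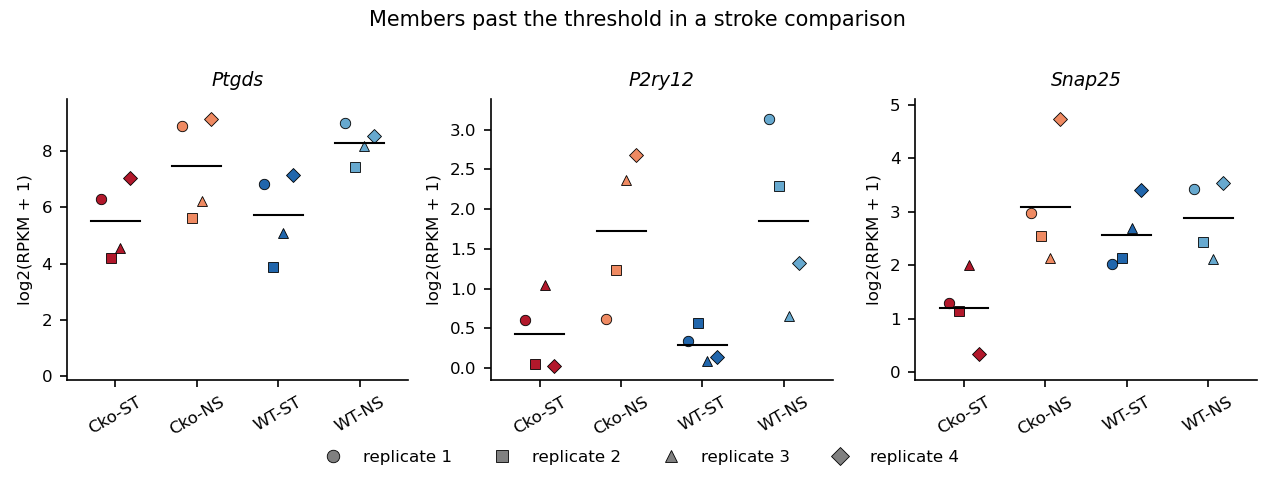
Points are the 16 stroke libraries as log2(RPKM + 1) for Ptgds, P2ry12 and Snap25, with colour for the group, shape for the replicate number and bars for group means on that scale. WT-ST lies wholly below WT-NS for Ptgds and P2ry12, and Cko-ST wholly below Cko-NS for Snap25, where the Cko-NS diamond at 25.6 RPKM stands apart.

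Genotype comparisons asked whether loss of Gpr124 went with other marker levels. In Cko-NS against WT-NS 0 of 19 members passed, against 0.315% of all genes, and 3 members had an unadjusted p under 0.05. In Cko-ST against WT-ST 0 of 19 members and 0% of all genes passed in limma, with 1 member and 476 genes at an unadjusted p under 0.05. The difference between the stroke effects passed for 0 of 19 members and 0% of all genes, with 2 members and 691 genes at an unadjusted p under 0.05. In the beta-catenin experiment 14 members entered a separate fit of 11252 genes. Bcat against Ctnnb1-WT passed for 0 of 14 members and 0% of all genes, with 1 member, Acta2, and 590 genes at an unadjusted p under 0.05. Acta2 was 1.96 ± 0.81 there (limma adjusted p = 0.917), higher on average in Bcat.

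A second list held 55 further markers of the same cell types. Of its 23 genes tested, 1 rose and 1 fell in each stroke comparison. Gja1, the connexin 43 of astrocytes that endothelial cells also make, rose in Cko (1.68 ± 0.14, limma adjusted p = 1.53e-06) and in WT (1.76 ± 0.14, adjusted p = 4.56e-07). Gja1 RPKM was 990 to 1074 in Cko-ST and 304 to 359 in Cko-NS, and 713 to 1162 in WT-ST and 218 to 282 in WT-NS. The other astrocyte markers of that list were uneven: over the 16 libraries Glul, a glutamine synthetase, had 2751 to 6236 RPKM, Sox9 1.74 to 11.9, Fgfr3 0.773 to 11, S100b 0.0260 to 2.75, Slc6a11 0 to 1.11, Gjb6 0 to 0.131 and Ntsr2 0 to 0.0895, of which Glul, Sox9 and Fgfr3 reached the filter and did not pass in either stroke comparison. Ctss, a lysosomal protease of microglia, fell in Cko (-2.06 ± 0.53, adjusted p = 0.0124 in limma), with 0.159 to 3.55 RPKM in Cko-ST and 2.56 to 14.1 RPKM in Cko-NS. Gap43, a growth-cone protein of neurons, fell in WT (-1.84 ± 0.43, adjusted p = 0.00767), with 0 to 0.555 RPKM in WT-ST and 1.83 to 10.0 RPKM in WT-NS. Without Cko-NS 4 and Cko-ST 3 the Cko calls held, at 1.70 ± 0.17 for Gja1 and -2.87 ± 0.50 for Ctss (limma adjusted p = 9.58e-06 and 0.00106). 0 of the 23 passed in the genotype comparisons or the interaction, and 0 of 22 tested in Bcat against Ctnnb1-WT.

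Of the 15 endothelial markers 2 rose and 5 fell in Cko, and 3 rose and 2 fell in WT. Cdh5 (VE-cadherin) rose in Cko (0.75 ± 0.16) and WT (0.72 ± 0.16), Emcn (endomucin) rose in both (0.80 ± 0.15 and 0.69 ± 0.15), and the efflux pump Abcb1a fell in both (-1.74 ± 0.22 and -1.43 ± 0.22, all with adjusted p of 0.00532 or less in limma). Without Cko-NS 4 and Cko-ST 3 the Cko values were 0.70 for Cdh5, 0.86 for Emcn and -2.11 for Abcb1a, all still called. Because RPKM is a share of a library, a lower marker value in stroke libraries does not show less of that transcript per cell. Actb RPKM was 15274 to 24639 in Cko-ST and 6822 to 8967 in Cko-NS. In the WT groups it was 16092 to 20413 in WT-ST and 7163 to 8658 in WT-NS. Whether the higher Actb share bears on the marker values was not tested.

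Summed by class, the members differed in which library was highest. The choroid plexus class was 65.5 to 1050 RPKM in Cko-ST and 539 to 1427 RPKM in Cko-NS, and 56.9 to 761 RPKM in WT-ST and 684 to 854 RPKM in WT-NS. The microglia and leukocyte class was 1.53 to 3.95 RPKM in Cko-ST and 7.04 to 23.9 RPKM in Cko-NS, without overlap, and 1.07 to 5.44 RPKM in WT-ST and 1.06 to 83.2 RPKM in WT-NS, where WT-NS 3 was the lowest and WT-NS 4 the highest of the 16. Aif1 made up 76.7 RPKM of the WT-NS 4 sum, and without Aif1 that sum was 6.49 RPKM and the highest was Cko-NS 1 with 23.9 RPKM. The neuron class was 0.399 to 3.32 RPKM in Cko-ST and 3.63 to 37.0 RPKM in Cko-NS, and 3.59 to 10.5 RPKM in WT-ST and 3.95 to 14.9 RPKM in WT-NS. Cko-NS 4 had the highest value of the stroke experiment for 9 members, WT-NS 1 for 10 and WT-NS 4 for 6, and Cko-ST 1, Cko-ST 3, WT-ST 2 and WT-ST 3 for 0. The sums carry no test.

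**Figure D5:**
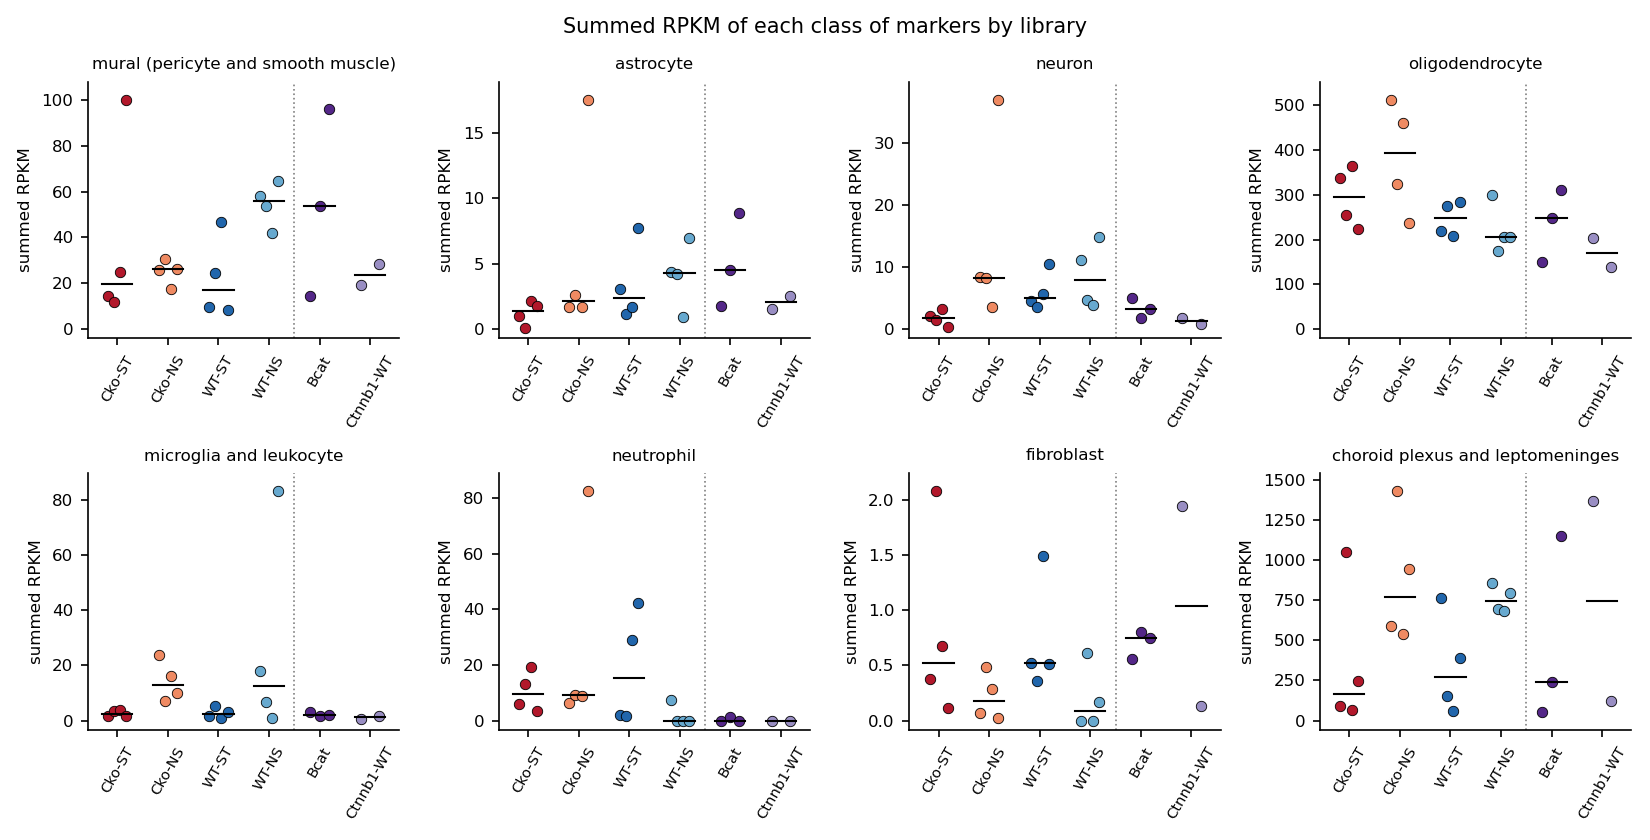
Each panel is 1 class of markers and each point the summed RPKM of its members in 1 library, with bars at group medians and a dotted line between the stroke and beta-catenin experiments, which are not comparable. Single libraries stand apart in several panels: Cko-NS 4 for astrocytes, neurons and neutrophils, WT-NS 4 for microglia and leukocytes (through Aif1, 76.7 of 83.2 RPKM), Cko-ST 4 and Bcat 3 for mural cells.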

How the data were processed

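Values are RPKM as deposited by the authors in 1 table; edgeR and mm10 are named in the submitters' processing notes, and no source used here gives the aligner or annotation. Of 24260 rows, 54 with repeated names were left out, and 8 columns of no described sample were not used. Groups came from the sample titles. Depth (4.72 to 19.6 M reads) and reads per gene were estimated for the stroke libraries from steps between low RPKM values, cover counting only, and were not used for tests.

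RPKM was tested as log2(RPKM + 1) with limma 3.58.1 in R 4.3.3 (trended empirical Bayes, two-sided), for genes whose RPKM averaged 1 or more, with Benjamini-Hochberg adjustment over all genes and a threshold of 0.05. One fit held the 16 stroke libraries and another the 5 others. 5 sex-linked genes were left out. The procedure was tested on simulated data. Alternatives changed the pseudocount, scaling, filter, trend, libraries and replicate block.

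Same-numbered Cko libraries deviated together from their group means (correlations of 0.1005 to 0.213, all 4 over 0.1), so their numbers were taken as pairs. This comes from the data, not the labels. In WT 1 of 4 pairs passed 0.1, with correlations of 0.012 to 0.130, and numbers 1, 2 and 3 each matched their own number best. Same-numbered libraries of different genotype, which cannot share a mouse, had -0.017 to 0.0994. The limit of 0.1 therefore does not clearly separate Cko from WT or from such libraries, and pairing is not established.

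Members past the threshold, the member of highest mean in each class, and deviating members above 5 RPKM were named with all values; Mog, Mal in comparisons, Enpp2, Cnp, Tubb3, Acta2, Myh11, Pdgfrb and others were chosen after their values were seen. The members and lists were chosen with earlier results of these data known. Locations are from GENCODE M21 on GRCm38.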

Additional observations from a re-analysis of the deposited data

Results flagged for a closer look

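In 7 of the 82 groups of 4 libraries searched, 1 library lay far from the other 3 by Dixon's criterion on log2(RPKM + 1). Chance meets it in about 1 group in 20 for normally distributed values, a rate that need not hold where many values are listed at 0. Where the other 3 are listed at 0, as for S100a8 and S100a9 in WT-NS, any value above 0 meets it. In WT-NS 4, Aif1 was 76.7 RPKM (0 to 0.24 in the other 3) and Aldoc was 6.21 RPKM (0.0935 to 0.368). In WT-NS 1, Tmem119 was 2.96 RPKM (0 to 0.209), C1qa was 2.35 RPKM (0 to 0.133), S100a8 was 5.91 RPKM and S100a9 was 1.61 RPKM (both listed at 0 in the other 3). In WT-ST 3, Dcn was 1.39 RPKM (0.198 to 0.323). On RPKM itself, searched after the data were seen, 16 groups met the criterion. They were these 7 together with Slc1a3 (14.2), Snap25 (25.6), Mag (10.1), S100a8 (60) and S100a9 (22.4) in Cko-NS 4, Ptprc in Cko-NS 1 (8.92), Mag in Cko-ST 4 (6.97), Ttr in Cko-ST 2 (992) and Mbp in WT-NS 1 (20.7).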

How the results depend on the processing

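Members called in Cko-ST against Cko-NS numbered 1, against 0 with no filter, 3 without Cko-NS 4 and Cko-ST 3, and 0 to 3 with 1 library left out. Members called in WT-ST against WT-NS numbered 2, against 0 with a filter of 0.1 RPKM, 0 with no filter, 1 without the trend, and 0 to 2 with 1 library left out. In Cko-NS against WT-NS 0 members were called, against 1 (Mal) without Cko-NS 4 and Cko-ST 3 and 0 to 1 with 1 library left out. Genes called there numbered 31, against 19 with no filter, 12 without the trend, 2 from the 8 libraries alone, and 1 to 41 with 1 library left out, and in Cko-ST against WT-ST 0 to 8. Leaving out 1 library turned the interaction of Ptgds to -0.01 (WT-ST 2) and -0.00 (Cko-NS 2), over a range to 1.17, and of P2ry12 to -0.15 (WT-NS 1) and -0.09 (Cko-NS 1), over a range to 0.67. The causes were not tested beyond the smaller sets that these settings test.

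The replicate block over all 16 libraries put Cko and WT libraries of 1 number in the same block. With it, members called in Cko numbered 3, and 3 in the block over the 8 Cko libraries alone. Without Cko-NS 4 and Cko-ST 3 these were 3 and 1. The second of those smaller fits called 652 genes, against 1491 in the main fit of all 16 libraries, which differs in its libraries as well as in the block. Genes called in Cko-NS against WT-NS with the block over all 16 numbered 60. WT numbers were not taken as pairs; the block there called Ptgds and Mog (adjusted p = 1.57e-04 and 0.0485) and not P2ry12 (0.0664).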
